A study of Mus musculus with 6 samples.

Results

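Genes of the actin cytoskeleton, together with targets of serum response factor (SRF), were examined in TM4 cells with and without 4-nitrophenol (PNP). The group holds 39 of the 23462 named genes on the array. Members were chosen by symbol, and every non-control probe whose transcript accession maps to one of them was taken, which gave 72 probes. TM4 is an established mouse testicular line, labelled a male testicular somatic cell line and widely used as a Sertoli cell model. PNP is a phenol with a nitro group, known as a breakdown product of organophosphate insecticides and as a component of diesel exhaust. Total RNA was labelled with Cy3 after linear amplification and measured on 6 single-colour Agilent arrays. The comparison was made at 24 h, between 3 arrays of untreated cells (0 µM) and 3 arrays of cells given 10 µM PNP. All 6 samples came from this single line. The labels number the replicates without saying whether they were separate cultures, so p-values reflect only how far these samples lie apart, and that distance may be technical.

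Actin filaments are built from globular actin, cut back by cofilin, fed by profilin, branched by the Arp2/3 complex and bundled, anchored and pulled by crosslinkers, adhesion proteins, tropomyosins and myosins. When globular actin is used up, the cofactors MRTF-A and MRTF-B are released from it, enter the nucleus and act with SRF, which binds the CArG box and drives many actin, adhesion and contractile genes. In the testis, Sertoli cells hold actin bundles at their junctions, while peritubular myoid cells carry the smooth muscle contractile set.

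The SRF binding element was looked for in RefSeq promoter windows of build GRCm38.p6, each running from 250 bases before to 50 bases after a gene start. The arrays' file headers name the older build mm9, so these coordinates belong to RefSeq and not to the probes. Of the 39 members, 35 had a promoter in that table, with 43 promoters in all. Only an exact CArG box was counted, CC then 6 bases of A or T then GG, so variant boxes were not looked for. The box was matched in 9 of those 43 promoters (20.9%), against 535 of all 32851 promoters of the same length (1.63%). By gene, 8 of 35 members held a match (22.9%), against 1.81% of all genes and 6 of 62 genes (9.68%) in a separate list of other actin and SRF genes. Members were chosen as actin genes and SRF targets, so a share above that of all genes was built into the choice. The 8 members with a match were Actg1, Cnn2, Fhl1, Fhl2, Myl9, Rnd3, Vcl and Srf itself, whose window held the box at 2 places. The box reads as its own reverse complement in consensus, so the strands give the same matches. A match describes letters and does not show binding. The stretches below, 5′ to 3′ on the gene's strand with the matched box in capitals, are shown because they include the member with the lowest treatment difference (Srf), the member with the highest (Vcl), another member with a positive difference (Rnd3), a cytoplasmic actin (Actg1) and a myosin light chain (Myl9).
Srf, chr17:46556200-46556259, minus strand: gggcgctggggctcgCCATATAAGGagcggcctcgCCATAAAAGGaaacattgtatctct
Vcl, chr14:20929156-20929195, plus strand: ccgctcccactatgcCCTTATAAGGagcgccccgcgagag
Rnd3, chr2:51149187-51149226, minus strand: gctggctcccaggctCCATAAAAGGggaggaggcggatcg
Actg1, chr11:120348561-120348600, minus strand: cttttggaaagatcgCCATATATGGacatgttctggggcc
Myl9, chr2:156775288-156775327, plus strand: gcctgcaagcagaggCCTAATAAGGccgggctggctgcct

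Signals are given as log2 of the processed signal minus the array's own 75th percentile, so that 0 is the 75th percentile and each unit is a doubling. The 75th percentile was between 272.5 and 461 signal units, and between 48% and 57.9% of probes were well above background on an array. No spot was saturated. The arrays lay on 3 slides, as the array identifiers show. Slide 1 held untreated 1 and 2, slide 2 held untreated 3 and PNP 1, and slide 3 held PNP 2 and 3. Each slide carried arrays at the same 2 positions, with untreated 1, untreated 3 and PNP 2 at position 1 and untreated 2, PNP 1 and PNP 3 at position 2. The labelled cell type was checked on markers, of which 14 of 18 for Sertoli cells were well above background on all 6 arrays, while Amh, Fshr and Cldn11, classical genes of the Sertoli cell, were so on none. None of the 6 Leydig markers with a probe and none of 5 endothelial markers was well above background on all 6 arrays, against 1 of 7 germ cell and 3 of 6 macrophage markers, with Ptprc and Adgre1 on none.

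Of the 39 members, 38 had a probe well above background on all 6 arrays, and 68 of the 72 probes were so. The exception was Lmod1, a leiomodin that nucleates actin filaments in smooth muscle, whose single probe never rose well above background. The single probe for Actb, cytoplasmic beta-actin, was bright on every array. The scanner software marked it as an outlier on untreated 1, untreated 3 and PNP 1. That probe therefore had too few accepted spots and was left untested, so 37 members were tested, each through its brightest testable probe. Outlier marks touched 6 member probes, on untreated 1, untreated 3 and PNP 1 alone.

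No member passed the test between PNP and untreated cells. At a Benjamini-Hochberg adjusted p under 0.05 in limma, 0 of 37 members were called, where 0 of all 21557 genes and unnamed transcripts were called (0%). The smallest adjusted p among members was 0.512 in limma. At an unadjusted p under 0.05, 0 members were lower and 0 higher, against 3.08% of everything tested lower and 6.86% higher. Over the 13558 named genes alone, 393 were lower and 493 higher. Of the 37 members, 27 had a negative and 10 a positive difference, with a median of -0.06 on the log2 scale, beside -0.04 over everything tested and -0.09 over the 13558 named genes. Negative differences were also the larger part of everything tested (11894 of 21557) and of the named genes (8432 of 13558). The 95% interval of the difference held 0 for all 37 members. For 34 of them it lay wholly between -1 and 1, within a 2-fold change in either direction, and the 3 others were Srf, Myh11 and Vcl.

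**Figure D1:**
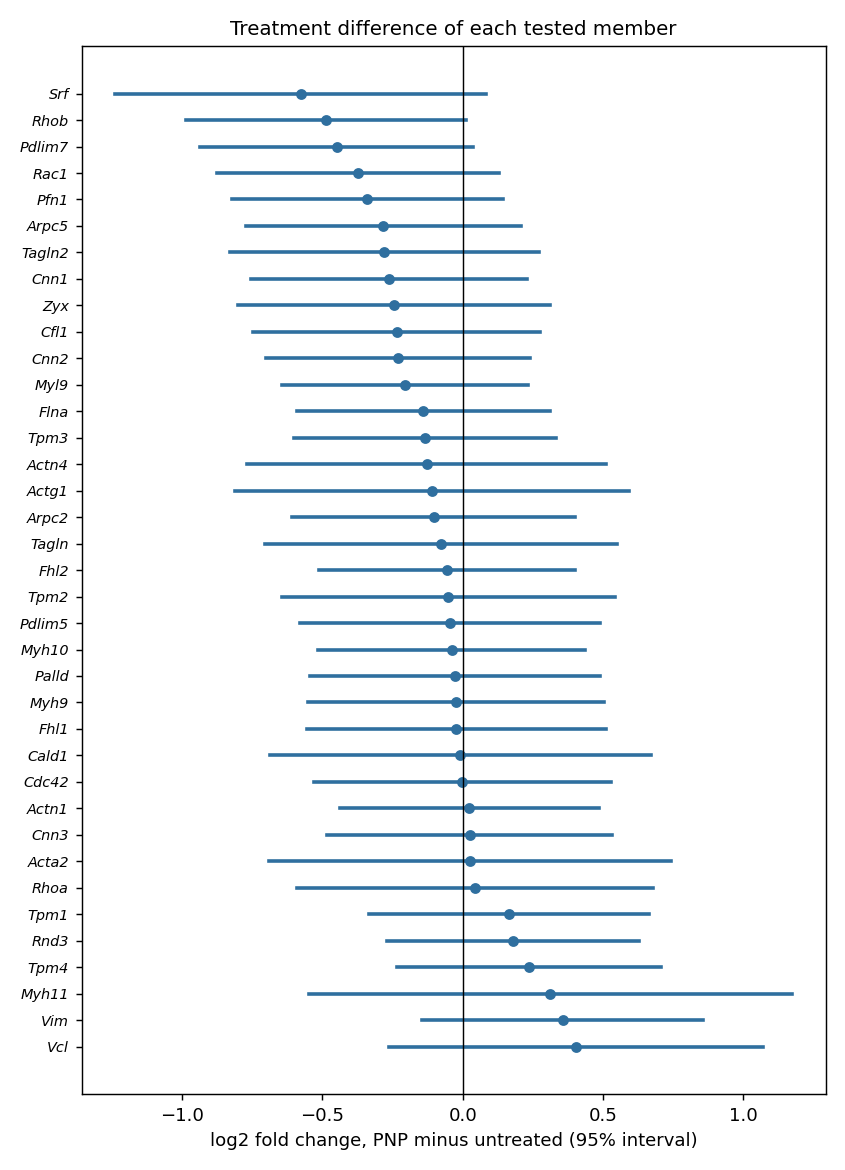
Log2 fold change of each tested member (PNP minus untreated, n = 3 arrays per group, 2 untreated for Acta2 and Actg1) on the horizontal axis, with its 95% interval as a bar and members ordered by the difference. Every interval crosses 0; Srf, Rhob and Pdlim7 lie lowest, and Vcl and Vim highest.

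How the signs split moved with the choice of arrays and scaling. The split of 27 below and 10 above 0 became 20 below and 17 above after quantile normalization or normexp background correction, 19 and 18 with the authors' values, and 31 and 6 after median centring, which lowered the median of everything tested to -0.15 and that of the members to -0.16. Within array position 1 the members' median was -0.08, and within position 2 it was -0.17. Slide 2 is the only slide with an array of each group, untreated 3 at position 1 and PNP 1 at position 2. Treatment and position therefore cannot be told apart within slide 2, here or for the single members below. On that slide PNP 1 was below untreated 3 in 24 of the 36 members measured on both and above it in 12, with a median difference of -0.12. With slide as a fixed block, which rests on that pair, everything tested had a median of 0.05. Many members were low on both arrays of slide 2. Leaving that slide out, a choice made after the data were seen, gave differences of -0.40 for Srf, -0.36 for Rhob, -0.48 for Pdlim7 and 0.88 for Vcl, none of them called by limma. The untreated arrays left were all on slide 1 and the PNP arrays all on slide 3. Treatment and slide cannot be told apart in these values.

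The transcription factor Srf had the largest difference in size. Its signal was 3.28, 2.60 and 2.85 in untreated 1 to 3 and 1.91, 2.82 and 2.26 in PNP 1 to 3. PNP 2 lay among the untreated values and PNP 1 and 3 lay below all of them, so the groups overlapped. The difference was -0.58 (SE 0.29, 95% interval -1.24 to 0.08, limma adjusted p = 0.540). Between array positions Srf gave -0.60 for position 2 minus position 1, and it was the only member with an unadjusted p under 0.05 in that comparison (limma adjusted p = 0.174). With position as a block the treatment difference was -0.38 (limma adjusted p = 0.436). Without untreated 1 it was -0.39, without PNP 1 it was -0.37, and within slide 2 it was -0.94.

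Rhob, whose short-lived product is found on endosomes and the plasma membrane, had the next lowest difference. Its signal was 1.13, 0.80 and 1.02 in untreated 1 to 3 and 0.29, 0.79 and 0.42 in PNP 1 to 3. All PNP values were below all untreated values, narrowly so for PNP 2 against untreated 2. The difference was -0.49 (SE 0.22, 95% interval -0.99 to 0.01, limma adjusted p = 0.512), and within slide 2 it was -0.74. Rac1, which drives lamellipodia, had a difference of -0.37, with PNP 2 and 3 (3.97 and 3.85) below the other 4 arrays and PNP 1 at 4.39 among the untreated values. Rhoa, the main activator of actomyosin contraction, had a difference of 0.04, and one of -0.71 within slide 2. Cdc42, which governs filopodia and polarity, had a difference of -0.001. Rnd3, whose product opposes Rhoa, had a difference of 0.18.

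Pdlim7, a PDZ and LIM domain protein of actin bundles, was measured by 2 probes that gave near-equal differences. The brightest gave 5.08, 5.00 and 4.66 in untreated 1 to 3 and 4.27, 4.49 and 4.62 in PNP 1 to 3, so the groups did not overlap, though untreated 3 and PNP 3 lay close together. Its difference was -0.45 (SE 0.21, 95% interval -0.94 to 0.04, limma adjusted p = 0.532). The second probe gave 4.00, 4.13 and 3.47 in untreated cells and 3.37, 3.26 and 3.70 with PNP, a difference of -0.42, and its groups overlapped. Over the 35 members with values on all 6 arrays, Rhob and Pdlim7 were the 2 whose PNP values all lay below the untreated values, and 0 had PNP values all above. Everything tested gave 7.83% below and 7.6% above by the same rule.

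**Figure D2:**
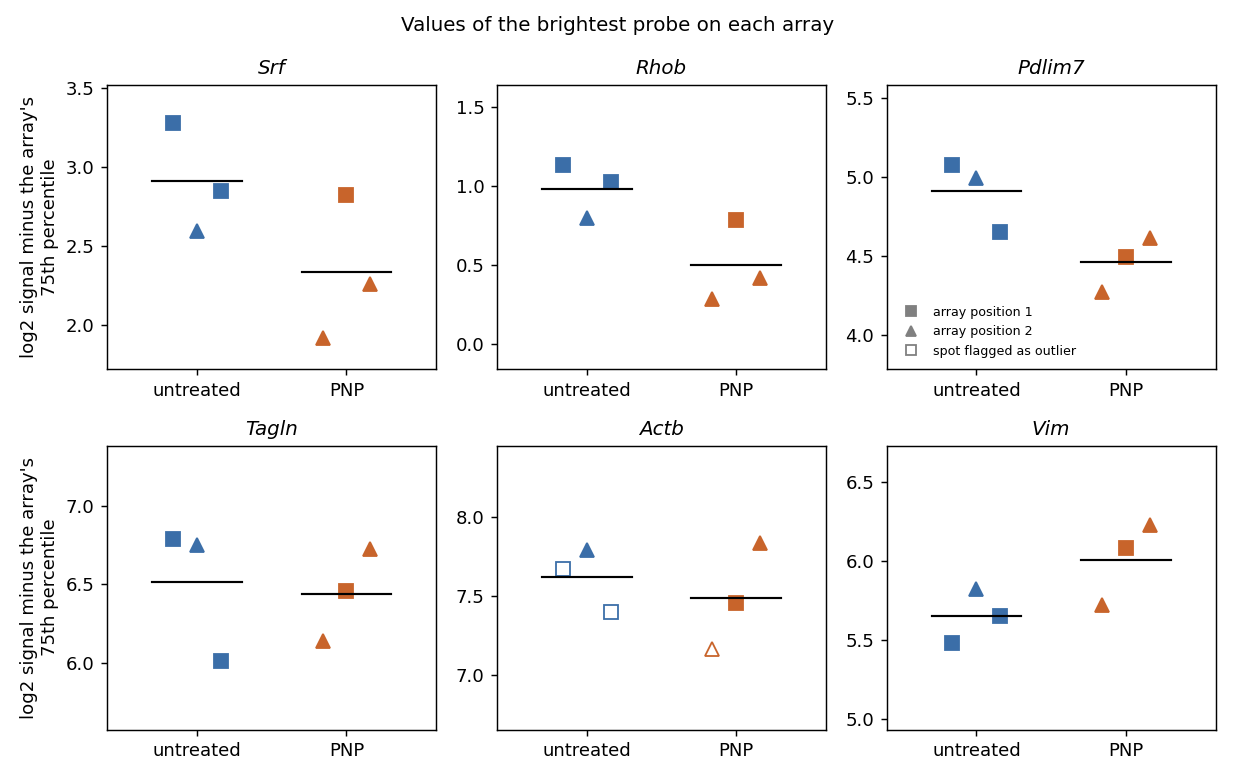
Log2 signal minus the array's 75th percentile on the vertical axis for 6 members on each array, with squares for array position 1, triangles for position 2, open symbols for spots marked as outliers and lines at the mean of each group's 3 arrays, marked spots included. PNP values of Rhob and Pdlim7 lie below all untreated values, while the groups overlap for Srf, Tagln, Actb and Vim.

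Of the 10 crosslinkers and adhesion genes, Pdlim7 included, 8 had negative and 2 positive differences, with a median of -0.05. Vcl, which encodes vinculin and links actin to integrin and cadherin junctions, had the highest treatment difference of all members. Its signal was 0.76, 0.70 and 1.37 in untreated 1 to 3 and 0.83, 1.61 and 1.60 in PNP 1 to 3. Untreated 3 and PNP 1, the 2 arrays of slide 2, were the ones that crossed over. The difference was 0.40 (SE 0.29, 95% interval -0.26 to 1.07, limma adjusted p = 0.669), and within slide 2 it was -0.54, the opposite sign. Zyx (zyxin, a focal adhesion protein that responds to tension) had a difference of -0.25. Flna (filamin A, a crosslinker of filaments into networks) had one of -0.14, and its dimmer probe gave -0.42. Actn4 and Actn1 (the nonmuscle alpha-actinins) had differences of -0.13 and 0.02, and a dimmer Actn1 probe gave -0.32. Fhl1, Fhl2, Pdlim5 and Palld, LIM proteins and palladin of actin bundles and focal adhesions, lay between -0.06 and -0.02.

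On their brightest probes the 4 actin turnover genes all had negative differences, with a median of -0.26. Among all named genes 8432 of 13558 were negative. Pfn1, profilin, gave 5.15, 5.00 and 4.84 in untreated 1 to 3 and 4.44, 4.64 and 4.89 in PNP 1 to 3. PNP 3 lay above untreated 3, and the other PNP values were below all untreated values. Its difference was -0.34 (SE 0.21, 95% interval -0.82 to 0.14, limma adjusted p = 0.619). Arpc5 and Arpc2, subunits of the Arp2/3 complex, had differences of -0.28 and -0.10. Their second probes gave -0.24 and 0.11, so Arpc2 had probes of both signs. Cfl1, cofilin, had -0.24 on its brightest probe and -0.22 on its second.

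Of the actins, Acta2, the smooth muscle alpha-actin, and Actg1, cytoplasmic gamma-actin, were tested on probes that lacked 1 untreated array each because of outlier marks. Acta2 had a signal of 6.77 and 5.97 in untreated 2 and 3, and of 6.35, 6.18 and 6.66 in PNP 1 to 3, so the PNP values fell between the untreated ones. The difference was 0.03 (SE 0.31, limma adjusted p = 0.988). Actg1 had 4.98 and 5.23 in untreated 1 and 2 and 5.48, 4.67 and 4.83 in PNP 1 to 3, with a difference of -0.11 (SE 0.30, limma adjusted p = 0.921). Its brightest probe, untested because of outlier marks, gave 7.4, 7.6 and 6.9 in untreated 1 to 3 and 7.0, 7.2 and 7.5 in PNP 1 to 3. A brighter Acta2 probe was left untested for the same reason. Actb had 7.67, 7.79 and 7.40 in untreated 1 to 3 and 7.17, 7.46 and 7.84 in PNP 1 to 3. With the marked spots kept, an alternative chosen after the data were seen, its difference was -0.13 (SE 0.24, limma adjusted p = 0.871). The actins are close in sequence, and cross-hybridisation between their probes was not tested.

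The smooth muscle contractile genes, which also mark peritubular myoid cells, were detected in these cells apart from Lmod1. For Myh11 this rests on its brightest probe, as another of its probes was well above background on no array. Of the 8 contractile genes tested, 6 had negative and 2 positive differences, with a median of -0.14. Tagln, or SM22-alpha, an actin-binding SRF target, gave 6.79, 6.75 and 6.02 in untreated 1 to 3 and 6.14, 6.46 and 6.72 in PNP 1 to 3. The 2 lowest values were those of slide 2, 1 from each group, and the difference was -0.08 (SE 0.28, limma adjusted p = 0.942). Tagln2 had a difference of -0.28, and the calponins Cnn1, Cnn2 and Cnn3, which bind actin and slow myosin, had -0.26, -0.23 and 0.02. Myl9, a regulatory light chain of myosin, had -0.21, and Cald1, caldesmon, an inhibitor of actomyosin, -0.01. Myh11, the smooth muscle myosin heavy chain, was dim, at -3.42, -3.29 and -3.68 in untreated 1 to 3 and -2.43, -2.99 and -4.03 in PNP 1 to 3. PNP 1 was the highest and PNP 3 the lowest of its 6 values, with a difference of 0.31 (SE 0.38, limma adjusted p = 0.797). The nonmuscle myosin heavy chains Myh9 and Myh10 had differences of -0.02 and -0.04.

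Other myoid genes were followed beside these members. Of 8 such markers, 6 were well above background on all 6 arrays, and Myocd and Synpo2 were so on none. Their signal summed over probes, in multiples of the 75th percentile, was between 49.3 and 54.8 on the untreated arrays and between 39.1 and 47.6 on the PNP arrays. Such a sum adds unlogged signals, so Smtn (log2 4.60 on untreated 1) weighs far more in it than Des (-0.29). Of single genes and unnamed transcripts, 7.83% lay below untreated without overlap. No such share was taken for sums over probes, so that figure is no measure for the sum. Among the 6 detected markers Smtn (smoothelin) had a treatment difference of -0.34, Mylk -0.14, Des -0.11, Ptch1 -0.09, Pdgfra -0.001 and Actg2 0.04. The sum for Sertoli markers was between 20.3 and 24.6 untreated and between 17.8 and 22.6 with PNP. The part of either in the members' values was not tested, and fewer cells of a kind cannot be told apart from less RNA per cell in such samples.

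The 4 tropomyosins, which wind along filaments and set which myosins may bind, had 2 negative and 2 positive differences and a median of 0.06. Tpm1 had a difference of 0.16, Tpm4 of 0.24, Tpm2 of -0.05 and Tpm3 of -0.13. Vim, the intermediate filament vimentin of mesenchymal and Sertoli cells, gave 5.48, 5.82 and 5.65 in untreated 1 to 3 and 5.72, 6.08 and 6.23 in PNP 1 to 3. PNP 2 and 3 were above all untreated values and PNP 1 lay among them. The difference was 0.36 (SE 0.22, 95% interval -0.14 to 0.86, limma adjusted p = 0.616), and within slide 2 it was 0.07.

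Probes of the same gene did not always give the same sign. Of the 20 members with more than 1 tested probe, 9 had probes of both signs, 10 had only negative and 1 only positive differences. The spread of the differences between probes of a gene had a median of 0.30 and reached 1.48 for Tpm3. In the fit with every probe on its own row, 0 of 65 member probes were called by limma at an adjusted p under 0.05, as were 0 of 28317 probes (0%). At an unadjusted p under 0.05, 2 member probes were higher, both of Tpm3, against 6.28% of all probes, and 0 were lower, against 3.1%. The first of these probes gave 3.22, 3.07 and 3.45 in untreated 1 to 3 and 3.50, 4.68 and 4.77 in PNP 1 to 3. All PNP values were above the untreated values, PNP 1 narrowly so, and the difference was 1.07 (SE 0.34, limma adjusted p = 0.397). The second was well above background on all 3 PNP arrays and on none of the untreated ones, with a PNP signal at least 1.68-fold higher (limma adjusted p = 0.346). It entered the test only through the group where it was high, so its place in that count supports nothing. A bound of this kind sets the PNP mean against the lowest signal well above background on each untreated array, or the probe's own signal there if that is higher. Another Tpm3 probe went the other way, at 2.12, 1.94 and 2.07 in untreated cells and 1.40, 1.66 and 1.84 with PNP, a difference of -0.41 (SE 0.20, limma adjusted p = 0.557). Tpm3 makes several transcripts, and which of them each probe reads was not examined.

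**Figure D3:**
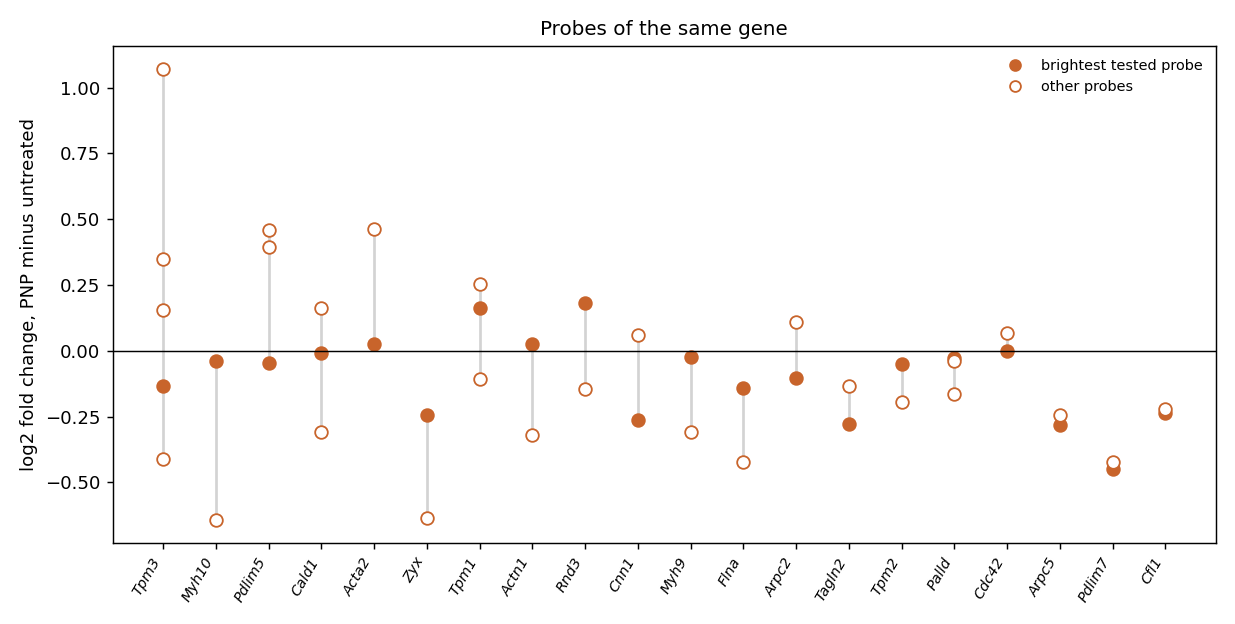
Log2 fold change (PNP minus untreated) on the vertical axis for each probe of the 20 members with more than 1 tested probe, filled for the brightest tested probe and open for the others. The Tpm3 probe without untreated signal above background is left out; Tpm3 has the widest spread, with probes at 1.07 and -0.41, while the 2 probes of Pdlim7 and of Cfl1 nearly coincide.

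Other members showed the same kind of disagreement at smaller size. For Myh10 the brightest probe gave -0.04 and a dimmer one -0.64, the latter with 2.13, 2.04 and 2.76 in untreated 1 to 3 and 2.73, 1.17 and 1.10 in PNP 1 to 3. Slide 2 held its 2 highest values, 1 from each group. For Acta2 a dimmer probe gave 0.46, and for Pdlim5 2 dimmer probes gave 0.46 and 0.39 where the brightest gave -0.05. For Zyx the dimmer probe gave -0.63. A dim Myh11 probe was well above background on 2 PNP arrays and on no untreated array. It gave -4.51, -4.87 and -5.38 in untreated 1 to 3 and -4.89, -4.02 and -3.24 in PNP 1 to 3, so the groups overlapped, and it was not tested.

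More of the array passed the test between the 2 array positions than between the treatments. With treatment in the model, limma called 562 of 21557 (2.61%) between positions at a Benjamini-Hochberg adjusted p under 0.05, and 0 of 37 members. That count rests on single arrays: it was 0 without untreated 1, untreated 2, untreated 3 or PNP 2, 58 without PNP 3 and 1064 without PNP 1. At an unadjusted p under 0.05, 1 member was lower at position 2 (Srf) and 0 were higher, against 9.39% lower and 11.1% higher over everything tested. The members' median was 0.02, beside 0.06 over everything tested, and it turned to -0.14 after quantile normalization. Acta2 had the highest position difference among members, 0.53 (limma adjusted p = 0.265).

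Of the 63 tested member probes with all 6 values, 2 lay higher and 6 lower at position 2 without overlap, against 11.8% and 11.1% of all probes. A dimmer Pdlim5 probe gave 0.41, 0.10 and 0.61 on the position 1 arrays untreated 1, untreated 3 and PNP 2, and 1.40, 1.40 and 1.27 on the position 2 arrays untreated 2, PNP 1 and PNP 3. Its difference was 0.94 (limma adjusted p = 0.0522 with each probe on its own row), and a second Pdlim5 probe gave 1.04 (limma adjusted p = 0.0820). The dimmer Zyx probe gave -0.12, -0.49 and -0.52 at position 1 and -1.35, -2.03 and -1.32 at position 2, a difference of -1.10 (limma adjusted p = 0.0583). A Tpm1 probe gave 2.83, 3.01 and 3.06 at position 1 and 1.98, 1.96 and 2.47 at position 2, a difference of -0.89 (limma adjusted p = 0.0637). None of the 65 member probes passed the threshold between positions, where 3.43% of all probes did.

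Signals of many members were low on slide 2 in both groups. The members' median deviation from each gene's own mean was 0.14 on untreated 1, 0.09 on untreated 2, -0.10 on untreated 3, -0.24 on PNP 1, -0.02 on PNP 2 and 0.10 on PNP 3. The 2 lowest medians were those of slide 2, 1 from each group. PNP 1 held the lowest value of 18 of the 37 tested members and untreated 3 that of 8, while untreated 1 held the highest value of 15. Such counts were not taken over all genes. The median deviation of all named genes was 0.095, 0.085 and -0.06 on untreated 1 to 3. On PNP 1 to 3 it was -0.069, -0.07 and 0.026.

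**Figure D4:**
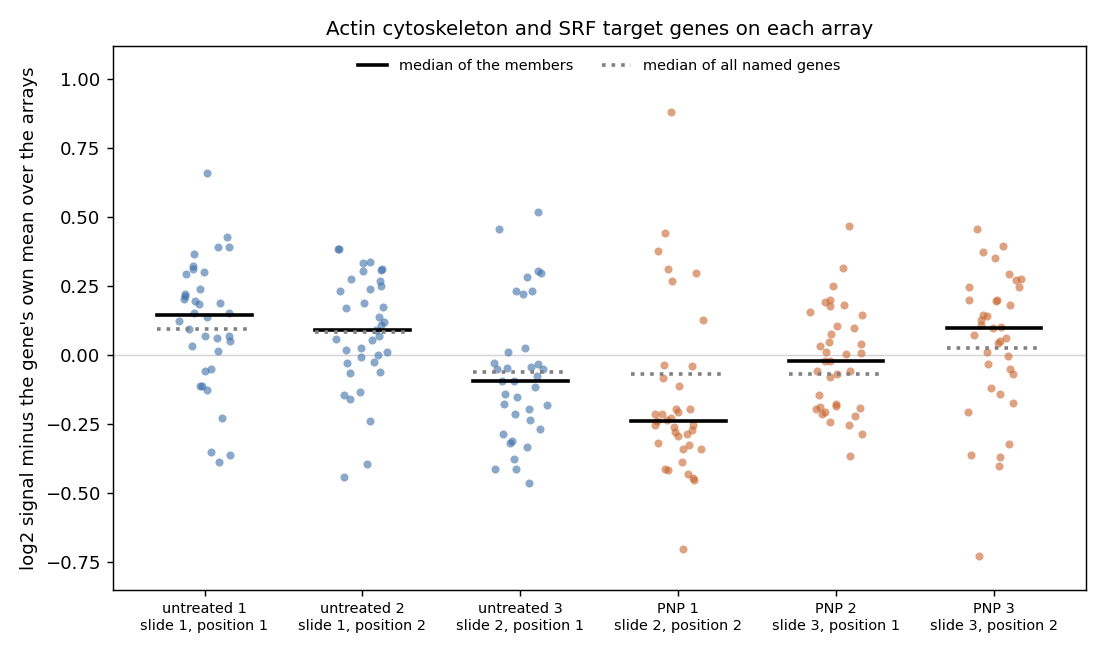
Each point is a tested member on 1 array, plotted as its log2 signal minus the gene's own mean over the arrays, with untreated arrays in blue and PNP arrays in orange. The members' median (solid line) is lowest on PNP 1 and untreated 3, the arrays of slide 2, where it lies below the median of all named genes (dotted line).

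Over the 35 members with all 6 values, the mean of slide 2 minus the mean of the other arrays had a median of -0.28 on the log2 scale, beside -0.12 over all named genes. For the 21 members among the 1353 named genes of highest signal, the top 10% by rank, it was -0.33, beside -0.27 over those 1353, and for the 14 other members it was -0.12. In 12 of the 35 members (34.3%) the 2 arrays of slide 2 were the 2 lowest, against 11.5% of named genes. Among the members in that brightest class it was 10 of 21 (47.6%), against 30.2% of the named genes in it. The members furthest down on slide 2 were Actn4 (-0.62), Tagln (-0.60), Zyx (-0.47), Tpm2 (-0.44) and Tagln2 (-0.44). Both arrays of slide 2 were the highest for 3 members, Cald1 (0.67), Fhl1 (0.45) and Cdc42 (0.42), with Cald1 at 4.15 and 4.01 there and between 3.24 and 3.61 elsewhere. Those 3 are 8.57% of the 35, against 7.39% of named genes. This pattern was looked for after the values were seen. Without slide 2 the members' median treatment difference was -0.14, and 0 of 37 were called by limma at an adjusted p under 0.05. Treatment and slide cannot be told apart in that setting.

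**Figure D5:**
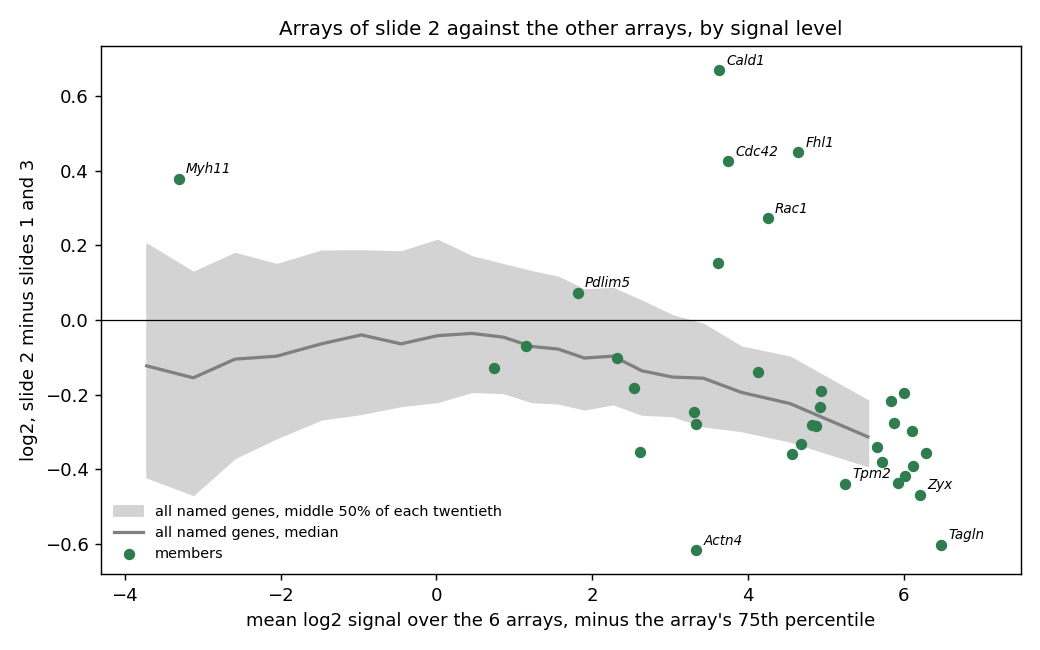
Mean of slide 2 minus the mean of slides 1 and 3, in log2 units, on the vertical axis against the mean log2 signal minus the 75th percentile on the horizontal axis, with members in green and the median and middle 50% of named genes in grey. Most bright members lie below 0, as bright named genes do, and Cald1, Fhl1 and Cdc42 lie above.

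Treatment differences were also read by promoter. Members with a CArG box in the window had a median difference of -0.08 over 8, with 6 negative, beside -0.05 over the 26 tested members with a promoter and no match, with 19 negative. Srf and Vcl, the lowest and highest of all members, each carry the matched boxes printed above.

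A list of 76 other actin and SRF genes, 70 of them tested, gave the setting. Of the 70, 0 were called by limma at an adjusted p under 0.05, 53 had negative and 17 positive differences, and the median was -0.17. Among all named genes 8432 of 13558 had negative differences, with a median of -0.09. At an unadjusted p under 0.05, 3 of the 70 were lower and 1 higher, against 3.08% lower and 6.86% higher over everything tested. Of the 13558 named genes, 393 were lower and 493 higher. The count among the 70 moved with the setting. It was 13 lower and 0 higher after median centring, 19 and 4 with array weights, and 3 and 3 after quantile normalization. In those settings 7.54%, 16.4% and 4.25% of everything tested were lower. Flnc, filamin C, had a difference of -0.56 (limma adjusted p = 0.387), with all PNP values (2.95, 3.07 and 3.18) below all untreated values (3.70, 3.51 and 3.69). Wasf2, an activator of Arp2/3 below Rac1, had -0.53 (limma adjusted p = 0.431), and Pxn, the adhesion scaffold paxillin, had -0.49 (limma adjusted p = 0.455). Rock1, the kinase through which Rhoa drives contraction, had 0.66 (limma adjusted p = 0.434), with 1.86, 1.66 and 2.10 in untreated 1 to 3 and 2.92, 2.49 and 2.20 in PNP 1 to 3. Between positions the smallest p-values were those of Des (0.65), Myl12b (0.53), Rnd2 (0.59) and Rac3 (-0.61), none past the threshold. The SRF cofactor genes Mrtfa and Mrtfb had treatment differences of 0.27 and -0.28, and the only probe for Myocd did not rise well above background.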

How the data were processed

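Gene expression was measured in TM4 cells on 6 single-colour Agilent arrays. Per the file headers, the deposited values are processed spot intensity values, background-subtracted and detrended by Agilent Feature Extraction (version 11.5.1.1 in the headers, 10.7 in the submitters' processing notes), with an mm9 grid build. The authors' deposited table of log2 values has a median of 4.74 in every column and a correlation of at least 0.998 with the scanner values. How it was scaled is not given in the sources used here, and it served as an alternative. Each array has 62976 spots, of which 3671 are controls. Spots of a probe were averaged over 56605 other probes, spots marked as outliers were dropped, and log2 intensity minus the array's 75th percentile was taken. Symbols came from RefSeq accessions, for 33767 probes, and 22838 stayed unnamed. A probe was kept if well above background on all 3 arrays of a group, with at least 2 values in each group (28317 probes), and a gene was read from its brightest such probe (21557 rows, 7999 of them unnamed). Tests used limma 3.58.1 in R 4.3.3 (lmFit, eBayes, two-sided) with Benjamini-Hochberg adjustment over all rows and a threshold of 0.05, for treatment, and for array position with treatment in the model. All 39 members are named, and of the other actin and SRF genes the 4 with the smallest p in each comparison. Mrtfa, Mrtfb and Myocd were named as the SRF cofactors after their values were seen. The members and lists were chosen with earlier results of these data known. Number of arrays limits the precision. The fit with treatment and position together was run on simulated arrays, drawn independently and without a slide effect. The treatment fit without position was not simulated, so that run cannot speak for it or for slide differences. Alternatives were background correction, scaling, filter, probe rule, array weights, blocks and left-out arrays.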

Additional observations from a re-analysis of the deposited data

How the results depend on the processing

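Treatment calls among members stayed at 0 in each of the 23 alternatives, and the members' median stayed below 0, between -0.20 with array weights and -0.0009 with the authors' values. Signs of single members changed in up to 10 of 36 (slide as a fixed block). Members at an unadjusted p under 0.05, 0 as reported, numbered 1 (lower) with normexp, quantile normalization or the filter on all 6 arrays, 1 (higher) without slide 2 (added after seeing the data), 2 (higher) with every probe on its own row, 3 (lower) after median centring, and from 0 to 2 when 1 array was left out. With array weights it was 9 of 37 (24.3%), 2 higher and 7 lower, where 30.3% of everything tested passed. Array weights gave untreated 1 a weight of 9.11 and the others at most 0.798. With them limma called 1376 rows of the whole array, 1 of the other actin and SRF genes and 0 members, with Srf at an adjusted p of 0.0587. Within position 1 limma called 540 rows and within position 2 it called 78, with 1 array in a group taken to vary like the others, and 0 members. Calls between positions, 562 as reported, numbered 1159 with normexp, 0 with no filter, 900 with the filter on all 6 arrays, 970 with every probe on its own row, 2834 without slide 2, and from 0 to 1064 when 1 array was left out. The members' position median was -0.14 after quantile normalization. The cause of these shifts was not tested. With the labels' replicate number as a block, 0 rows and 0 members were called and the members' median was -0.05. Same-numbered arrays correlated at -0.41, -0.55 and -0.41 in their deviations from the group means. Each same-numbered pair lay at opposite array positions, and position was not removed first. These values therefore cannot show whether the numbers pair the samples. The replicate block changed no call. With 3 arrays a group, differences within the intervals given cannot be told from 0, and dim probes give bounds alone.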
